A study of Mus musculus with 9 samples.

Results

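The genes described here are the aldo-keto reductases (Akr), aldehyde dehydrogenases (Aldh) and alcohol dehydrogenases (Adh), measured by RNA sequencing in sorted cancer cells of mouse lung tumours with and without floxed Smarca4 alleles. They were chosen by symbol alone, as every row whose name began with Akr, Aldh or Adh followed by a digit. This gave 43 of the 23224 genes in the table, of which 17 were Akr, 20 Aldh and 6 Adh genes. A filter on low counts left 35 of the 43 (13 Akr, 19 Aldh and 3 Adh genes) among 15663 genes that were tested. The other 8 were Adh4, Adh6a, Adh6-ps1, Akr1c6, Akr1c20, Akr1c21, Akr1cl and Aldh8a1.

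Carbonyl groups are reactive, and these enzyme families dispose of them in opposite directions. Aldo-keto reductases use NADPH to turn aldehydes and ketones into alcohols, aldehyde dehydrogenases use NAD(P) to turn aldehydes into acids, and alcohol dehydrogenases interconvert alcohols and aldehydes. The same chemistry makes and breaks hormones: Aldh1a enzymes make retinoic acid from retinal, and mouse Akr1c enzymes act on steroids and prostaglandins. In the lung, club cells of the airway are rich in such enzymes.

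Bulk libraries were made from the polyA RNA of cancer cells isolated by FACS from the dissociated lungs of moribund mice. All mice carried, among other alleles, Trp53fl/fl and the Rosa26LSL-TdTom reporter on a mixed B6;129S2 background, and were given adenoviral Cre in the trachea, under the promoter of the club cell gene CCSP. KP mice were Smarca4+/+ (4 libraries), KPS-HET mice carried 1 floxed Smarca4 allele (2 libraries) and KPS mice carried 2 (3 libraries). Smarca4 encodes BRG1, the motor subunit of a chromatin remodelling complex. The sources used here give no age, no time from instillation and no sort gate. They also do not tie each library to its own animal, so the spread behind the p-values is that between these libraries and may be technical.

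Each level is a TMM-scaled CPM, a count as a part of all counts of its library, given as mean ± SD over libraries. Changes are log2 fold changes ± SE. A gene is said to have risen or fallen where the quasi-likelihood test of edgeR gave a Benjamini-Hochberg adjusted p, over all 15663 genes, under 0.05. Libraries held 12607500 to 37114400 counts. Smarca4 was at 126 ± 12.0 CPM in KP and 86.8 ± 14.7 in KPS-HET. In KPS it was at 47.7 ± 7.84 CPM, a change of -1.40 ± 0.15 from KP to KPS (edgeR adjusted p = 0.0021). Of 6 genes that define lung epithelium, none was at 0 in any group, and their summed level ran from 5413 to 8708 CPM. From KP to KPS 1 of the 6 rose and 1 fell, with 3 positive and 3 negative changes. Markers of several cell types moved with the groups. The summed level of 21 macrophage genes was 968 to 1849 CPM in KP, 849 and 2814 in KPS-HET and 1316 to 6172 in KPS. By group mean its largest part was Lyz1 in KP (993 ± 415 CPM, and 650 ± 113 in KPS). In KPS it was Chi3l3 (1856 ± 1958 CPM, and 133 ± 45.2 in KP). Of these 21 genes, 18 had a positive change from KP to KPS and 4 rose (Cd14, Marco, Ctss and Chi3l3). KPS replicate 1 was the highest library. The summed level of 10 hepatocyte genes was 3137 to 8173 CPM in KP, 2810 and 3355 in KPS-HET and 637 to 794 in KPS, and 3 of 7 tested fell (Trf, Afp and Alb). Most of that sum was Trf, transferrin, at 5155 ± 1830 CPM in KP. All 12 alveolar type 2 markers had a negative change and 1 fell (Sftpb), and all 6 ciliated markers tested had a negative change with none passing. All 10 endothelial markers had a positive change and 1 rose (Vwf, 4.61 to 22.6 CPM). Of 10 fibroblast and smooth muscle markers, Col1a1 rose (1.16 to 7.30 CPM) and Acta2 fell (120 to 3.34 CPM). In a bulk library, fewer cells of a type and less RNA per cell cannot be told apart. Nor can markers made by the cancer cells themselves be told from those of other cells.

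Together the 43 genes took 0.247 to 0.254% of all counts in KP, 0.241 and 0.244% in KPS-HET, and 0.225 to 0.237% in KPS, groups that did not overlap. On the TMM scale their sum was 2288 to 2585 CPM over all libraries, and KP and KPS overlapped. Of single genes, 5 of the 35 tested genes passed the test against KP (14.3%), 4 lower and 1 higher, beside 7.24% of all genes tested. Lower calls took 3.28% of all genes and higher calls 3.96%. The 4 that fell were all Akr1c genes (Akr1c12, Akr1c13, Akr1c18 and Akr1c19), and the 1 that rose was Aldh1a1. The median log2 change of the 35 was -0.19, against 0.01 for all genes tested. The libraries of KP and KPS did not overlap for 13 of the 35 (37.1%), beside 21.8% of all genes.

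**Figure D1:**
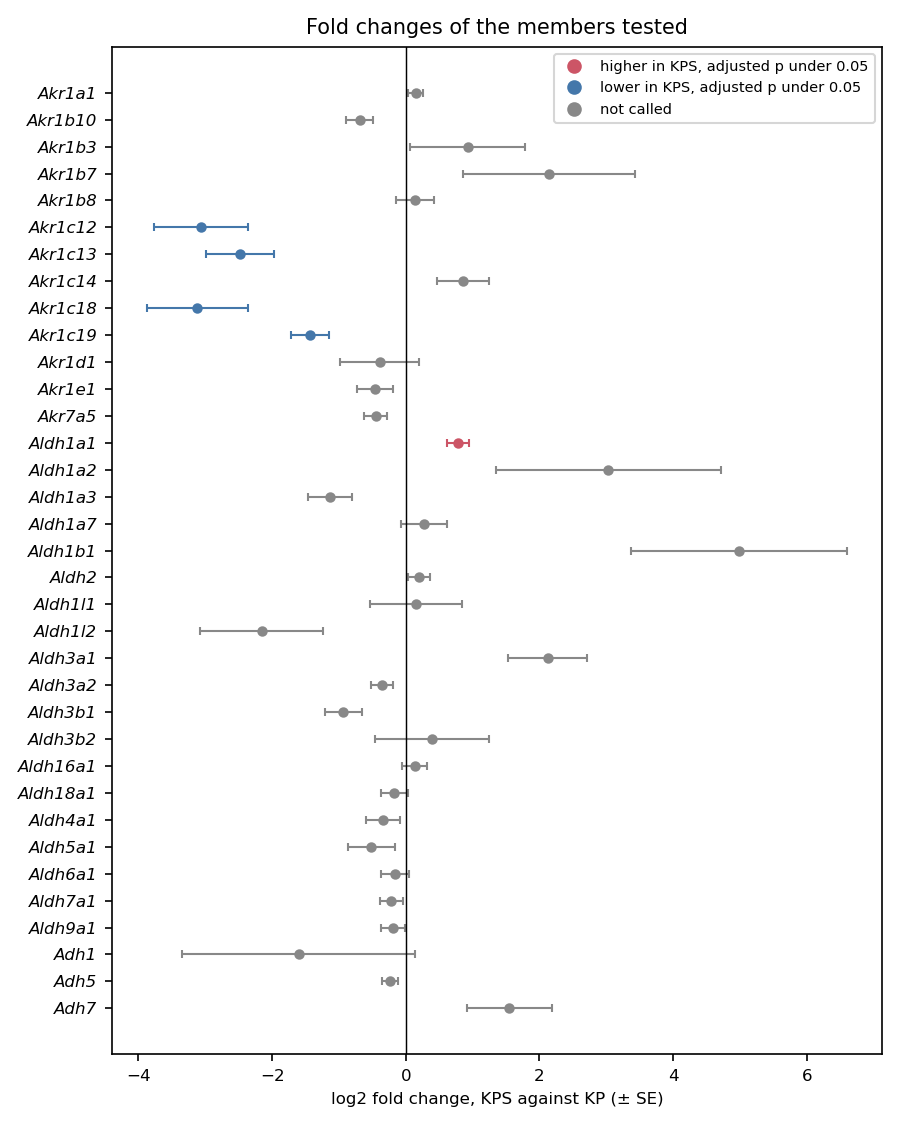
Log2 fold changes from KP to KPS (x axis, with SE) of the 35 genes tested, 1 row a gene; blue points fell, the red point rose and grey points did not pass an adjusted p of 0.05. Akr1c12, Akr1c13, Akr1c18 and Akr1c19 lie between -3.12 and -1.43, and the wide bars on the right belong to genes of few counts, such as Aldh1b1 and Aldh1a2.

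The Akr1c genes, except Akr1cl on chromosome 1, stand side by side on chromosome 13. Along the RefSeq annotation of GRCm38.p6 the order was Akr1c14, Akr1c18, Akr1c13, Akr1c19, Akr1c12, Akr1c6, Akr1c20, Akr1c21 and then Akr1e1, with pseudogenes, a tRNA gene and noncoding RNA genes between some of them. The 4 that fell were thus neighbours, from Akr1c18 to Akr1c12, with no other tested Akr1c gene between them, and the gene before them, Akr1c14, did not fall. The 250 bases before the start site are shown for these 5 genes because the promoters divide them: Akr1c12 and Akr1c13 were 92.5% identical there, and both shared with Akr1c19 a repeated CATTAG, which is in capitals.
Akr1c13: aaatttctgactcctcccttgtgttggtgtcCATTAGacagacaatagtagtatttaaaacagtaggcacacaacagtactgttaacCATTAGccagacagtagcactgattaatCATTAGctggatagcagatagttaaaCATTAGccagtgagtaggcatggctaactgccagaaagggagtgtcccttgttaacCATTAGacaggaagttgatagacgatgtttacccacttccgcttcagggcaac
Akr1c12: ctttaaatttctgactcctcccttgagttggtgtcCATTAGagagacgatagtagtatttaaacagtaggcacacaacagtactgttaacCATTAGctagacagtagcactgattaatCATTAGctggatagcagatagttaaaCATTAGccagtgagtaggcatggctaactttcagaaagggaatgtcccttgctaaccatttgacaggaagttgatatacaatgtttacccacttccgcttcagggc
Akr1c19: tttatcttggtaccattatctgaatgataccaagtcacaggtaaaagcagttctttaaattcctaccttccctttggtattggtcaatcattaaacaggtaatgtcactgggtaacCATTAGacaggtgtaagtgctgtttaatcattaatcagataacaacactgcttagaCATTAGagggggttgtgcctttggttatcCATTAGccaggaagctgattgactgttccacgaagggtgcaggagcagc
Akr1c18: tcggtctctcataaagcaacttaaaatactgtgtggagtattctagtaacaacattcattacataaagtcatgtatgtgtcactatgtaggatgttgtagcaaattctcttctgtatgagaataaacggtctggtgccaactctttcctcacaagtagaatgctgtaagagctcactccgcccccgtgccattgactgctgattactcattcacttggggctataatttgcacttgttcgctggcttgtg
Akr1c14: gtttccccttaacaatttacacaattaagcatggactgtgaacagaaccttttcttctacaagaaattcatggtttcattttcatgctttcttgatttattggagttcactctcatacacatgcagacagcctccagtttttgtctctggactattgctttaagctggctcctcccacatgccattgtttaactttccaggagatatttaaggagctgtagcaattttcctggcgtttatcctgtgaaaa

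These are RefSeq promoters on GRCm38.p6, read 5′ to 3′ on the strand of the gene: chr13:4190937-4191186 (plus) for Akr1c13, chr13:4279400-4279649 (minus) for Akr1c12, chr13:4233490-4233739 (plus) for Akr1c19, chr13:4150647-4150896 (minus) for Akr1c18 and chr13:4059341-4059590 (plus) for Akr1c14. CATTAG, counted on both strands, stood 5 times before Akr1c13, 4 times before Akr1c12 and 3 times before Akr1c19, and was absent from these windows of Akr1c18 and Akr1c14. The letters were picked after these promoters had been read. At least 1 match stood in 6.36% of 32851 promoters in the RefSeq table, and 3 or more in 8 of them (0.0244%), 3 of which were these Akr1c genes. The other five were Cyp2c39, Fmo9 and 3 predicted genes. Akr1c18 fell without it, so the repeat and the fall did not go together over all 4. A match is only a string of letters and no site of binding was measured.

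Akr1c13 was the most abundant Akr1c gene per length of transcript in KP. Its levels were 87.4, 27.2, 134 and 122 CPM in the KP libraries, 39.4 and 86.6 in KPS-HET, and 16.3, 17.6 and 15.9 in KPS. Every KPS library lay below every KP and KPS-HET library, and KP replicate 2 was the lowest of KP. The change from KP to KPS was -2.48 ± 0.51 (edgeR adjusted p = 0.023).

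Akr1c12, its nearest copy, followed the same order of libraries in KP. Levels were 22.9, 5.66, 54.4 and 36.9 CPM in KP, 8.17 and 20.8 in KPS-HET, and 2.56, 4.81 and 3.42 in KPS. The groups KP and KPS did not overlap, though KP replicate 2 came close to KPS replicate 2. The change was -3.06 ± 0.70 (edgeR adjusted p = 0.032). The coding sequences of Akr1c12 and Akr1c13 were 96.2% identical in GENCODE M21, with a shared stretch of 228 bases, so the division of reads between them is uncertain.

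Akr1c18 is the mouse 20-alpha-hydroxysteroid dehydrogenase, which inactivates progesterone and ends its action in the ovary. It was a low gene here, at 4.73, 2.95, 9.76 and 10.1 CPM in KP, 2.78 and 17.3 in KPS-HET, and 0.44, 1.17 and 0.79 in KPS. All 3 KPS libraries were below every other library, and the KPS-HET pair held both the lowest of the other libraries and the highest of all. The change from KP to KPS was -3.12 ± 0.75 (edgeR adjusted p = 0.036).

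Akr1c19 had the smallest change of the 4. It stood at 88.5, 48.1, 99.2 and 89.1 CPM in KP, 65.2 and 59.2 in KPS-HET, and 33.6, 37.9 and 18.8 in KPS. KP and KPS did not overlap, and both KPS-HET libraries were above all of KPS and within the range of KP. The change was -1.43 ± 0.29 (edgeR adjusted p = 0.020).

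Akr1c14 is the mouse 3-alpha-hydroxysteroid dehydrogenase, which reduces dihydro forms of steroids such as dihydrotestosterone. Its levels were 3.53, 9.34, 5.40 and 7.52 CPM in KP, 14.9 and 9.35 in KPS-HET, and 10.5, 16.5 and 8.07 in KPS. KP overlapped KPS by 1 library, KP replicate 2, which was above KPS replicate 3. The change to KPS was 0.86 ± 0.39 and did not pass the test (edgeR adjusted p = 0.21). The remaining Akr1c genes were not tested: Akr1c20 was between 0.0826 and 0.395 CPM, Akr1c21 had counts in KPS-HET replicate 2 alone (0.678 CPM), Akr1cl was at most 0.0754 CPM, and Akr1c6 was listed at 0 in all libraries.

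**Figure D2:**
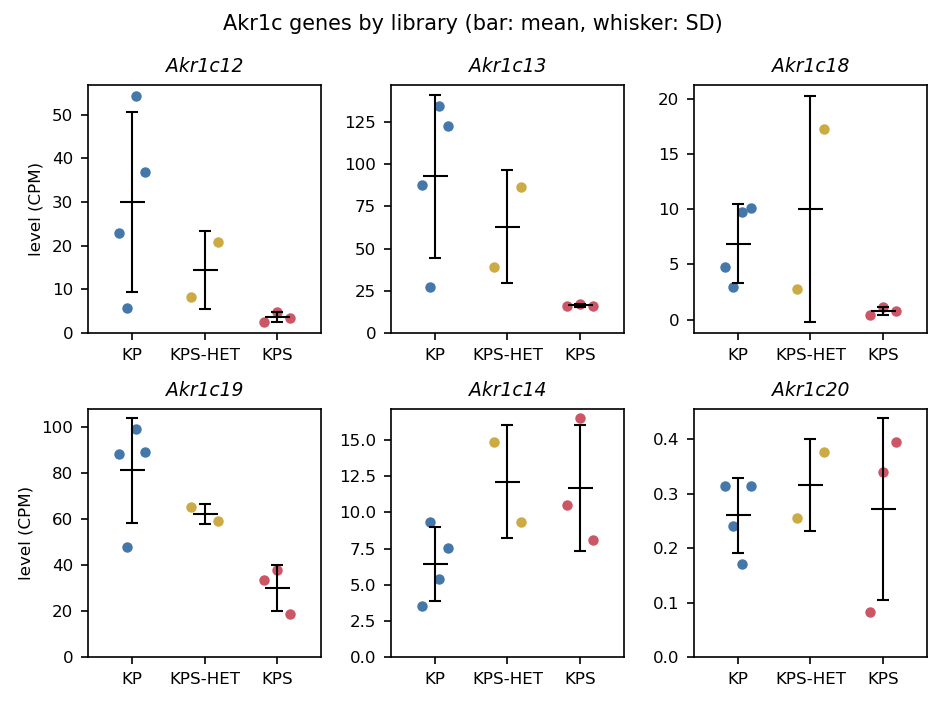
CPM of Akr1c genes in each library (points) by genotype group (x axis), with the group mean and SD; each panel has its own y axis. For Akr1c12, Akr1c13, Akr1c18 and Akr1c19 the 3 KPS points lie below all 4 KP points, and for Akr1c14 they do not.

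Summing all 9 Akr1c genes removes the question of how reads were divided between copies. The sum was 207, 93.5, 303 and 266 CPM in KP, 131 and 194 in KPS-HET, and 63.4, 78.3 and 47.4 in KPS. All KPS libraries were below all others. It changed by -1.79 ± 0.37 (edgeR adjusted p = 0.023), and did not pass without KP replicate 1, KP replicate 4, KPS replicate 1 or KPS replicate 3 (edgeR adjusted p = 0.051 to 0.073). The make-up of the sum differed too. Akr1c14 gave 4.07 ± 3.98% of it in KP (1.71 to 9.99%) and 18.2 ± 2.53% in KPS (16.5 to 21.1%). Akr1c13 gave 40.4 ± 7.64% in KP and 27.2 ± 5.75% in KPS, and Akr1c12 gave 12.2 ± 4.99% and 5.80 ± 1.60%. Akr1c19 gave 40.1 ± 8.81% and 47.0 ± 6.74%, ranges that overlapped. With the mean level of the macrophage genes as a term in the fit, the sum changed by -1.63 and none of the 4 genes passed: their changes were -2.47 (Akr1c12), -2.23 (Akr1c13), -2.07 (Akr1c18) and -1.51 (Akr1c19), with edgeR adjusted p of 0.204, 0.155, 0.259 and 0.091. That level was 1.25 to 2.15 log2 CPM in KP and 2.30 to 5.30 in KPS, without overlap. The term and the genotype therefore cannot be told apart in these libraries. The part of cells other than cancer cells in these results was not tested.

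**Figure D3:**
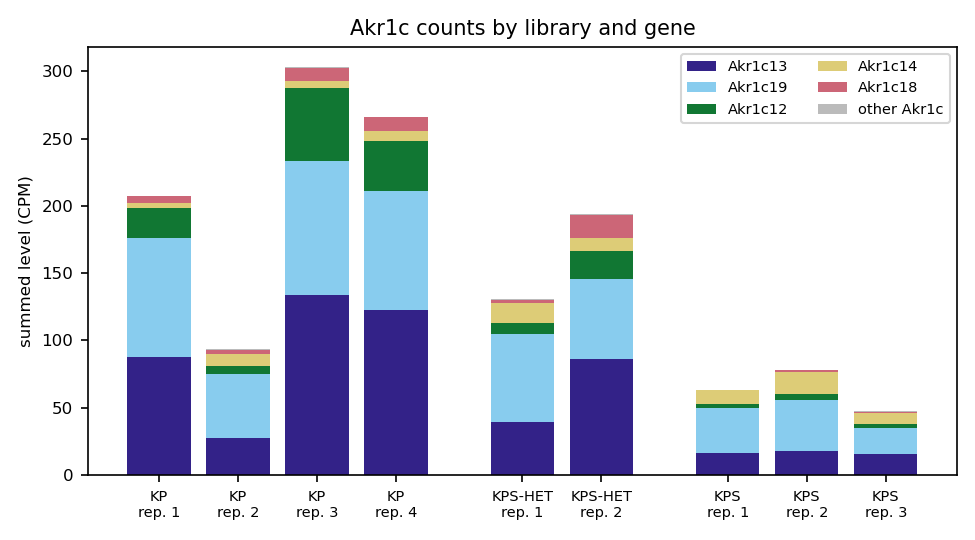
Summed CPM of the Akr1c genes (y axis) in each of the 9 libraries, stacked by gene. The bars are 93.5 to 303 CPM in KP, 131 and 194 in KPS-HET and 47.4 to 78.3 in KPS, and the share of Akr1c14 is widest in KPS.

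The calls were unequal in strength, with no change of sign in any of 15 alternative fits. Akr1c19 lost its call in 2 of them, with the macrophage term and without KP replicate 1 (edgeR adjusted p = 0.052). Akr1c13 lost its call in 4, with the macrophage term and without KPS replicate 1, KPS replicate 2 or KPS replicate 3 (edgeR adjusted p = 0.055 to 0.066). Akr1c12 and Akr1c18 each lost theirs in 8, with limma-voom, with the macrophage term and without any library of KP or KPS except KP replicate 2 (edgeR adjusted p = 0.0502 to 0.091 for Akr1c12 and 0.063 to 0.104 for Akr1c18). Their changes without single libraries ran from -3.44 to -2.63 and from -3.52 to -2.85. Leaving out KP replicate 1 left Akr1c13 as the 1 member of the set that passed.

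Beyond Akr1c, no aldo-keto reductase passed edgeR's test between KP and KPS. Akr1a1, the aldehyde reductase that also reduces glucuronate on the way to vitamin C in mice, was the most abundant of all 43 genes per length of transcript, at 449 CPM per kilobase in KP and 499 in KPS. Its levels were 624, 674, 582 and 672 CPM in KP, 675 and 564 in KPS-HET, and 727, 713 and 686 in KPS. The KPS libraries were the highest 3 of the 9 by a small margin, and the change from KP was 0.15 ± 0.11 (edgeR adjusted p = 0.45).

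The Akr1b genes include aldose reductase, Akr1b3, the first enzyme of the polyol pathway. The abundant one was Akr1b8, with 152, 189, 174 and 277 CPM in KP, 175 and 257 in KPS-HET, and 322, 164 and 167 in KPS. The groups overlapped, with the highest value in KPS replicate 1 and the others of KPS among the low ones. KPS replicate 1 was also the library with the highest sum of macrophage markers. The change was 0.14 ± 0.28 (edgeR adjusted p = 0.83) and turned to -0.29 without that library. Akr1b10 was 19.2 ± 2.84 CPM in KP and 11.9 ± 0.50 in KPS, with no overlap but no call (-0.69 ± 0.20, edgeR adjusted p = 0.068). It passed with DESeq2 (adjusted p = 0.014) and, with edgeR, without KP replicate 3 (adjusted p = 0.045). Akr1b3 averaged 5.68 ± 4.11 CPM for KP, 1.16 ± 1.63 for KPS-HET and 10.8 ± 1.95 for KPS, and Akr1b7 was under 1.6 CPM in all libraries. The 4 summed genes changed by 0.11 ± 0.26 (edgeR adjusted p = 0.84).

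Akr1e1, which lies at the far end of the Akr1c genes on chromosome 13 and reduces 1,5-anhydrofructose, had 20.7, 24.1, 33.5 and 26.0 CPM in KP, 22.2 and 21.2 in KPS-HET, and 15.9, 27.7 and 13.2 in KPS. KP and KPS overlapped through KPS replicate 2, and the change was -0.47 ± 0.27 (edgeR adjusted p = 0.33). Akr7a5, an aflatoxin aldehyde reductase, had 77.3, 85.2, 57.2 and 63.6 CPM in KP, 70.4 and 64.4 in KPS-HET, and 50.1, 61.4 and 44.2 in KPS. Its KPS libraries were low but overlapped KP, with a change of -0.45 ± 0.17 (edgeR adjusted p = 0.14). Akr1d1, the steroid 5-beta-reductase of bile acid synthesis, averaged 1.68 ± 0.69 CPM in KP and 1.28 ± 0.30 in KPS.

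Aldh1a1 was the aldehyde dehydrogenase that rose. This cytosolic retinal dehydrogenase is a well-known marker of club cells and of some stem-like cells. Its levels were 72.9, 96.3, 86.3 and 97.7 CPM in KP, 106 and 136 in KPS-HET, and 125, 144 and 185 in KPS. Every KPS-HET and KPS library was above every KP library, and KPS-HET and KPS overlapped. The change from KP to KPS was 0.78 ± 0.17 (edgeR adjusted p = 0.024), and from KP to KPS-HET 0.45 ± 0.19 (edgeR adjusted p = 0.97). With the macrophage level as a term the change to KPS was 0.99, with an edgeR adjusted p of 0.0498. The call was lost in 4 of 15 alternatives: without KP replicate 1, KP replicate 3, KPS replicate 2 or KPS replicate 3, where the lowest change was 0.58.

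Aldh1a7 is the neighbouring copy of Aldh1a1 in rodents, on chromosome 19. Their promoters are shown because they share a long stretch near the start, in capitals, while the bases before that stretch differ more.
Aldh1a1: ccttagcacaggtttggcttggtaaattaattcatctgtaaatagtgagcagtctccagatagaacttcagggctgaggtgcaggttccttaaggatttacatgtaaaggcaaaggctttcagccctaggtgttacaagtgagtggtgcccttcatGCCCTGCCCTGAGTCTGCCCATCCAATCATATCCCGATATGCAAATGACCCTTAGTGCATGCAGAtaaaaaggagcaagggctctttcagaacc
Aldh1a7: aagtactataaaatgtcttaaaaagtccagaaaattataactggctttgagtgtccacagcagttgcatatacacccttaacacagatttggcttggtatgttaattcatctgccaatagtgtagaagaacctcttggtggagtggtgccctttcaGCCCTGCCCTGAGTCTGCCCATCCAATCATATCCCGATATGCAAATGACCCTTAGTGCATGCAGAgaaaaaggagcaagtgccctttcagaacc

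These were chr19:20601718-20601967 (plus) and chr19:20727557-20727806 (minus) of GRCm38.p6, from RefSeq. Another Aldh1a1 promoter, at chr19:20492333-20492582 (plus), is not shown. The capitals are an identical run of 65 bases, and over the whole 250 bases the promoters were 66.0% identical. Levels of Aldh1a7 averaged 74.9 ± 37.3 CPM for KP, 77.5 ± 19.8 for KPS-HET and 90.3 ± 25.7 for KPS, and the groups overlapped (0.27 ± 0.34, edgeR adjusted p = 0.69). The coding sequences were 91.6% identical with a shared run of 100 bases. Summed, Aldh1a1 and Aldh1a7 gave 163 ± 39.0 CPM in KP and 242 ± 35.3 in KPS, a change of 0.57 ± 0.18 that did not pass (edgeR adjusted p = 0.093), so the call was made on Aldh1a1 and not on the sum, which does not depend on how reads were divided.

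Aldh1a3, another retinal dehydrogenase, had the highest CPM of the Aldh1a genes in KP and KPS-HET, though not in KPS, and its change to KPS was negative without passing. It stood at 129, 280, 128 and 141 CPM in KP, 136 and 145 in KPS-HET, and 62.0, 111 and 58.5 in KPS. All KPS libraries were below all others, and KP replicate 2 was far above every other library. The change from KP was -1.14 ± 0.33 (edgeR adjusted p = 0.065). It passed with DESeq2 (adjusted p = 0.0043), with limma-voom (adjusted p = 0.049) and, with edgeR, without KPS replicate 2 (adjusted p = 0.040). No other alternative passed, and with the macrophage term the change was -0.73 (edgeR adjusted p = 0.415). Aldh1a2, the retinal dehydrogenase of many mesenchymal cells, reached 19.0 CPM in KPS replicate 3 and was at most 3.25 in the other libraries. That library also had the highest endothelial marker sum (124 CPM) and, within KPS, the highest sum of fibroblast and smooth muscle markers (75.3 CPM). The latter sum was higher in KP replicate 1 and KP replicate 2 (228 and 130 CPM), where Aldh1a2 was at 0. It holds markers that went opposite ways: Acta2 fell from KP to KPS and Col1a1 rose. Of its 10 markers 7 had a positive change and 3 a negative one, so the sum does not stand for all of them. The part of endothelial, fibroblast and smooth muscle cells was not tested.

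**Figure D4:**
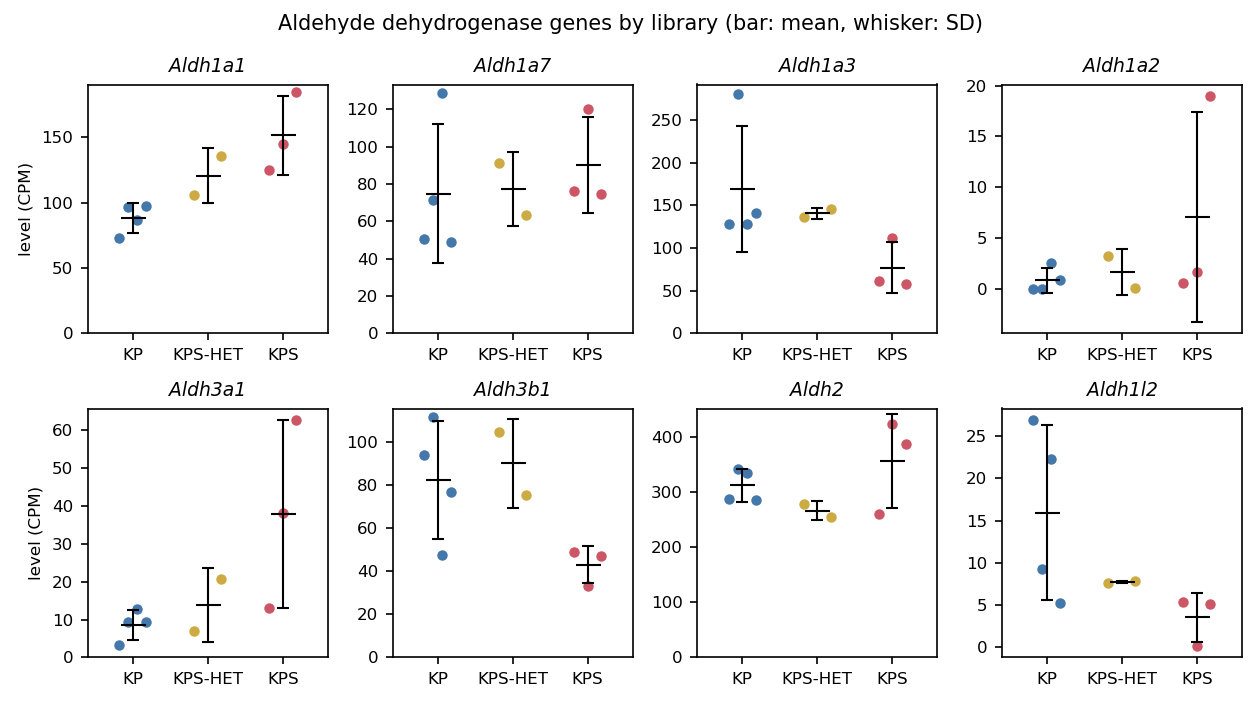
CPM of Aldh genes in each library (points) by genotype group (x axis), with the group mean and SD; each panel has its own y axis. Aldh1a1 is the 1 gene shown that passed the test, with KP at 72.9 to 97.7 CPM and KPS at 125 to 185; Aldh1a3 lies lower in KPS (58.5 to 111 CPM) and Aldh3a1 higher (13.1 to 62.7 CPM) without passing.

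Other genes of retinoid metabolism were counted beside these enzymes. A list of 30 held 22 that were tested. Rdh10, which oxidises retinol to retinal, the substrate of the Aldh1a enzymes, rose from 90.6 ± 34.8 CPM in KP to 369 ± 91.5 in KPS (2.02 ± 0.32, edgeR adjusted p = 0.0084). Rbp4, the retinol carrier of plasma, was at 346 ± 255 and 91.1 ± 18.4 CPM (edgeR adjusted p = 0.0504), and Rarres1 at 1.28 ± 0.83 and 6.14 ± 5.13 CPM (edgeR adjusted p = 0.203). Among the retinoic acid-degrading enzymes, Cyp26a1, Cyp26b1 and Cyp26c1 were too low to be tested. Cyp26b1 was at 0.077 CPM in KP (0 to 0.189) and 0.825 in KPS (0.340 to 1.67). The median change of the 22 was -0.11.

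Aldh3 enzymes handle aldehydes of lipids and aromatic compounds. Aldh3a2, the fatty aldehyde dehydrogenase, was the most abundant, at 117, 109, 164 and 141 CPM in KP, 111 and 118 in KPS-HET, and 119, 104 and 87.6 in KPS. The groups overlapped, and the change was -0.36 ± 0.16 (edgeR adjusted p = 0.22). Aldh3a1, a corneal and airway enzyme, was at 3.28, 9.28, 12.9 and 9.31 CPM in KP, 6.93 and 20.8 in KPS-HET, and 13.1, 38.2 and 62.7 in KPS. KPS lay above KP, though KPS replicate 1 barely so. The change of 2.12 ± 0.59 missed the threshold (edgeR adjusted p = 0.061), and passed with the macrophage term (3.23, edgeR adjusted p = 0.032) and without KPS replicate 1 (edgeR adjusted p = 0.029), as well as with DESeq2 (adjusted p = 0.0029). Without KPS replicate 3 the change was 1.52 (edgeR adjusted p = 0.197), and with limma-voom the adjusted p was 0.149. Without KP replicate 1, KP replicate 2 or KP replicate 4 the edgeR adjusted p was 0.117 to 0.122. Aldh3b1 averaged 82.5 ± 27.3 CPM for KP, 90.1 ± 20.8 for KPS-HET and 43.2 ± 8.55 for KPS, and overlapped by KP replicate 3 (-0.93 ± 0.27, edgeR adjusted p = 0.070). It passed with DESeq2 (adjusted p = 0.012) and, with edgeR, without KP replicate 3 (adjusted p = 0.021), and in no other alternative. Aldh3b2 stayed under 6.5 CPM.

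Aldh1a1 and Aldh3a1 are both classical club cell genes, and a list of 12 such markers holds them. In it 2 genes rose, Aldh1a1 and Hp, and 1 fell, Gsta3. Of the 12 changes 8 were negative, with a median of -1.06, and Aldh1a1 and Aldh3a1 were 2 of the 4 positive ones. The secretoglobin Scgb1a1, the defining product of club cells, was at 3614 CPM in KP and 2028 in KPS and did not pass (-0.83, edgeR adjusted p = 0.073). The summed level of the 12 was 4790 to 7787 CPM in KP and 5254 to 6172 in KPS.

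The mitochondrial Aldh2, the main enzyme for acetaldehyde, was the most abundant aldehyde dehydrogenase per length, at 80.8 CPM per kilobase in KP and 92.3 in KPS. Levels were 288, 341, 335 and 285 CPM in KP, 278 and 254 in KPS-HET, and 260, 423 and 387 in KPS. KPS held both the highest 2 libraries of the series and 1 of the lowest, and the change was 0.19 ± 0.17 (edgeR adjusted p = 0.53). Aldh1b1, a related mitochondrial enzyme, had 3 counts in all of KP and 141 in KPS (0.73 to 2.86 CPM). The ratio of the scaled counts was 46.3, with a 95% counting interval of 15.5 to 227, and the gene did not pass (edgeR adjusted p = 0.094). It passed with DESeq2 (adjusted p = 0.043) and in no other alternative. Of the KPS counts 104 came from KPS replicate 1, the library with the highest sum of macrophage markers. The fitted change, 4.98, was 4.09 without that library and 2.68 with the macrophage term (edgeR adjusted p = 0.22 and 0.52).

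Aldh1l1 and Aldh1l2 oxidise 10-formyltetrahydrofolate in the cytosol and the mitochondrion. Aldh1l2 had 26.9, 9.22, 22.3 and 5.25 CPM in KP, 7.66 and 7.84 in KPS-HET, and 5.37, 0.146 and 5.09 in KPS. KP replicate 4 was as low as KPS, and KPS replicate 2 far below the rest. The change of -2.16 ± 0.92 did not pass (edgeR adjusted p = 0.19). Aldh1l1 averaged 6.01 ± 4.73 CPM in KP and 6.66 ± 1.68 in KPS. None of 20 other folate genes passed under edgeR, with 14 negative changes and a median of -0.35.

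The remaining aldehyde dehydrogenases serve amino acid and carnitine metabolism. Aldh18a1, which makes the proline precursor pyrroline-5-carboxylate from glutamate, had the highest mean CPM over all 9 libraries, though not within KPS-HET: 73.6, 52.3, 56.7 and 70.3 CPM in KP, 52.5 and 44.8 in KPS-HET, and 40.4, 72.7 and 55.5 in KPS. The groups overlapped throughout (-0.17 ± 0.21, edgeR adjusted p = 0.68). Aldh4a1, Aldh5a1, Aldh6a1, Aldh7a1 and Aldh9a1, which act on aldehydes formed in the metabolism of proline, GABA, valine, lysine and carnitine, had changes of -0.52 to -0.16, and Aldh16a1 of 0.13, none of which passed. KP and KPS overlapped for each of these. Of 19 other genes of these pathways 2 fell, Ivd (62.6 ± 18.4 to 24.5 ± 2.43 CPM, edgeR adjusted p = 0.0083) and Hibadh (259 ± 22.2 to 161 ± 12.6 CPM, edgeR adjusted p = 0.0089), enzymes of leucine and valine breakdown. Aldh8a1, which had 0.275 CPM at most, was not tested.

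Among the alcohol dehydrogenases Adh5, the glutathione-dependent formaldehyde dehydrogenase, had most of the summed CPM, 93.9 to 99.7% in 6 libraries, 87.4 and 89.2% in KPS replicates 1 and 3, and 70.6% in KP replicate 1. It stood at 122, 107, 131 and 118 CPM in KP, 114 and 92.3 in KPS-HET, and 106, 102 and 95.7 in KPS. All KPS libraries lay just below KP, and the change was -0.23 ± 0.12 (edgeR adjusted p = 0.27). Adh7, an enzyme of upper digestive epithelium that also oxidises retinol, averaged 2.46 ± 1.41 CPM in KP and 7.22 ± 2.67 in KPS and was at 0.342 and 2.04 CPM in KPS-HET, with no overlap between KP and KPS and no call (1.55 ± 0.64, edgeR adjusted p = 0.17). Adh1, the classical ethanol enzyme of liver, was at 45.8 CPM in KP replicate 1 and 10.2 in KPS replicate 1, between 0.291 and 1.96 in the other KP and KPS libraries, and at 0 in both KPS-HET libraries. Against the floor of 3 counts over KPS-HET, its level was at least 124-fold higher in KP and at least 62.5-fold higher in KPS. Most of the counts behind these bounds came from KP replicate 1 and KPS replicate 1. The bounds cover counting error only and not the spread between libraries, and neither comparison passed (edgeR adjusted p = 0.97 and 0.32). Of 7 other genes of alcohol and acetaldehyde metabolism, Cat, catalase, fell from 496 ± 96.6 to 181 ± 30.0 CPM (-1.45 ± 0.19, edgeR adjusted p = 0.0034) and Acss3 from 8.39 ± 5.39 to 1.26 ± 0.71 CPM (edgeR adjusted p = 0.037).

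Tumours with 1 floxed allele were examined in the 2 KPS-HET libraries. No member passed against KP (0 of 35 by edgeR, DESeq2 or limma-voom), and neither did any of the 15663 genes with edgeR (0%). At an unadjusted p under 0.05 there were 2 members, Aldh1a1 and Adh1, beside 4% of all genes. DESeq2 called 2 of all genes (0.0128%). KPS-HET and KP did not overlap for 5 of the 35 (14.3%), beside 13.4% of all genes. The Akr1c changes were -1.05 ± 0.74 (Akr1c12), -0.56 ± 0.54 (Akr1c13), 0.53 ± 0.73 (Akr1c18) and -0.39 ± 0.32 (Akr1c19). For Akr1c18 the sign turned to -1.31 without KPS-HET replicate 2, so it rests on that library.

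Between KPS and KPS-HET no member passed with edgeR, beside 0.932% of all genes (146). At an unadjusted p under 0.05 there were 9 members, beside 16.5% of all genes, while DESeq2 called 7, beside 6.75% of all genes, and limma-voom 0. The smallest p was that of Akr1c18, at 10.0 ± 10.2 CPM in KPS-HET and 0.80 ± 0.36 in KPS (-3.65 ± 0.83, edgeR adjusted p = 0.068). The changes of the other Akr1c genes lower in KPS than KP were -2.01 ± 0.75 (Akr1c12), -1.92 ± 0.55 (Akr1c13) and -1.05 ± 0.33 (Akr1c19). The libraries did not overlap for 15 of the 35 (42.9%), beside 36.4% of all genes. KP, KPS-HET and KPS share libraries across these comparisons, so they are not independent of each other. The group means of 12 members fell in the order KP, KPS-HET, KPS, and those of 7 rose in that order, Aldh1a1 among them. Each other order held 3 to 5 members. The share of all genes in each order was not counted, so these counts are no result about the members.

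Akr and Aldh genes include well-known targets of NRF2, the transcription factor of the oxidative stress response, so 26 other genes of its pathway were counted. Of these 6 rose and 2 fell between KP and KPS, with 12 positive and 14 negative changes and a median of -0.04. Those that rose were Pgd (207 ± 26.3 to 647 ± 225 CPM) and G6pdx (146 ± 22.3 to 332 ± 63.6 CPM), which make NADPH, the cofactor of the aldo-keto reductases, and Gsta4, Srxn1, Gsr and Abcc1. Gsta4, a glutathione transferase for the lipid aldehyde hydroxynonenal, rose most, from 220 ± 84.6 to 1227 ± 351 CPM (2.48 ± 0.33, edgeR adjusted p = 0.0040). Gstm1 and Mgst1, also glutathione transferases, fell from 1091 ± 366 to 347 ± 95.8 CPM and from 1170 ± 158 to 728 ± 106 CPM. The antioxidant response element core TGACNNNGC, read on both strands, stood in the 250 bases before the start of 4 of 37 promoters of 34 members (10.8%) and of 10.2% of all promoters in the RefSeq table. The AP-1 motif TGANTCA stood in 5.41% of the member promoters and 6.75% of all, and GCGTG, the core of the xenobiotic response element, in 16.2% and 28.2%.

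Genes around the Akr1c enzymes in steroid and prostaglandin metabolism gave 4 lower and no higher calls among 18 tested. Ptgs1, a cyclooxygenase, fell from 176 ± 55.3 to 50.4 ± 4.64 CPM (-1.80 ± 0.30, edgeR adjusted p = 0.0096). Srd5a1, a steroid 5-alpha-reductase, fell from 54.7 ± 16.5 to 13.9 ± 5.49 CPM (-1.97 ± 0.40, edgeR adjusted p = 0.020). Cyp21a1, the steroid 21-hydroxylase, and Hsd3b2 were also lower, with edgeR adjusted p of 0.020 and 0.047. Their levels in KP and KPS were 21.2 ± 2.51 and 2.41 ± 2.07 CPM for Cyp21a1 and 7.99 ± 2.24 and 2.98 ± 0.65 CPM for Hsd3b2. Among 25 other carbonyl and short-chain reductases 1 rose, Hsd17b11 (48.3 ± 3.70 to 71.0 ± 5.81 CPM), and 1 fell, Dhrs7 (86.7 ± 9.25 to 44.5 ± 9.69 CPM).

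The genes whose levels followed Aldh1a1 and Akr1c18 most closely over the 9 libraries were listed as a description, by Pearson correlation of log2 CPM. For Aldh1a1 they were Osr1, Optn, Lypd6b, Nbl1 and Ccdc68, with r of 0.96 to 0.97. For Akr1c18 they were Slc35f1, Arfgef1, Apoa1, AI467606 and Ttc5, with r of 0.95 to 0.96. These are the highest of 15663 values each, and all libraries share the same groups. Apoa1 is also among the hepatocyte genes, at 36.6 ± 27.2 CPM in KP and 3.64 ± 1.48 in KPS.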

How the data were processed

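The values are estimated counts per gene, deposited by the authors with fractions and unscaled. The submitters' processing notes name RSEM 1.3.1, Bowtie 1.2.3 and mm9; no annotation or strand setting is named in the sources used here. The estimation divides reads between near-identical copies, so single paralogs are uncertain, as are overlapping or antisense genes. Rounding changed a value by at most 0.5. A filter (filterByExpr, minimum count 10, minimum total 15) removed 7561 genes and left 15663. Dates stood in place of 25 symbols, none of them a member.

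Genes were tested two-sided with edgeR 4.0.16 (quasi-likelihood, robust, TMM) in R 4.3.3, with a coefficient for each group over the 9 libraries, which leaves 6 residual degrees of freedom. Adjustment was by Benjamini-Hochberg over all genes tested, with a threshold of 0.05. The common biological coefficient of variation was 0.430. Groups came from the genotype label, which names no batch, and replicates were numbered in the order of the samples. Alternatives were another scaling, no filter, DESeq2 1.42.0, limma-voom (limma 3.58.1), only the groups compared, each library left out, a macrophage term and summed paralogs; those of the paralog sums themselves were added after seeing the data. The methods were checked on simulated data. Floors are 3 counts over a group, and floors and intervals cover counting error only.

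The members, the gene lists and the genes named were chosen with earlier results of these data known. Values in every library are given for Aldh1a1, Akr1c18, each member that passed a test and the member with the highest mean CPM of each subfamily, and for some others by choice after their values were seen (Akr1c14, Aldh3a1 and Adh1); of each pathway list up to 4 genes with the smallest p were named. Gene order, promoters (34 of 43 members matched) and their coordinates are from RefSeq on GRCm38.p6, and transcript lengths and coding identities from GENCODE M21, other builds than that of the counts; a level per length divides the CPM of a group by the length of 1 transcript. One further allele that all groups share and 1 listed gene are not reported here.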

Additional observations from a re-analysis of the deposited data

Results flagged for a closer look

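Within KP, the 1 group of at least 4 libraries, Dixon's test was run on the 35 genes tested. In 5 of them a library was set apart from the rest. Chance alone gives this in about 5% of groups of normally distributed values, which CPM of low genes are not. The share of all genes set apart in this way was not counted, so the count is no result about the members. Adh1 was 45.8 CPM in KP replicate 1 and 0.422 to 1.96 in the others. Aldh1a3 was 280.1 CPM in KP replicate 2 and 128 to 141 in the others, and without that library its change to KPS was -0.81 (edgeR adjusted p = 0.078). Aldh1l1 was 13.07 CPM, also in KP replicate 2, against 3.08 to 4.29. Aldh3b2 was 5.07 CPM in KP replicate 4 against 0.882 to 1.51. Aldh1b1 was 0.189 CPM in KP replicate 1 and 0 in the others, a matter of 3 counts.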

How the results depend on the processing

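The counts of members that passed between KP and KPS (5, with 1 higher and 4 lower) were 10 with DESeq2 (3 and 7), 2 with the macrophage term (2 and 0) and 1 with paralogs summed (0 and 1). Without single libraries they ran from 1 to 5 (0 to 2 higher, 1 to 4 lower). All genes that passed (1134) were 2280 with DESeq2, 352 with the macrophage term and 505 to 956 without single libraries. DESeq2 called 2 genes between KPS-HET and KP. Between KPS and KPS-HET, DESeq2 called 7 members (2 higher, 5 lower) and 991 genes, the fit of only the groups compared 15 genes, and fits without single libraries 0 to 1 members (lower 0 to 1) and 1 to 150 genes. The summed Akr1c genes changed by -1.63 with the macrophage term, past the threshold no longer, and by -2.07 to -1.61 without single libraries, losing the call without KP replicate 1, KP replicate 4, KPS replicate 1 or KPS replicate 3. Aldh1a1 with Aldh1a7 changed by 0.56 with DESeq2 and by 0.43 to 0.70 without single libraries, and the Aldh3b genes by -0.87 and by -1.09 to -0.72; both passed with DESeq2 and without KP replicate 3. The Akr1b sum turned to -0.24 with the macrophage term and ran from -0.27 to 0.29 without single libraries, and the sum of Adh1, Adh4, Adh6 and Adh7 turned to 1.14 with limma-voom and ran from -0.79 to 2.00, the last without KP replicate 1. For single genes that did not pass, the sign turned for Akr1b8 (KPS against KP -0.24 with the macrophage term and -0.29 to 0.32 without single libraries; against KPS-HET -0.020 with limma-voom, -0.29 with the macrophage term and -0.43 to 0.31; KPS-HET against KP -0.18 to 0.39). It also turned, KPS-HET against KP, for Akr1c18 (-0.23 with limma-voom, -1.31 to 1.33), Akr1a1 (-0.17 to 0.081), Akr7a5 (-0.15 to 0.032) and Aldh1a3 (-0.38 to 0.086), and, KPS against KPS-HET, for Adh5 (-0.16 to 0.096) and Aldh18a1 (-0.045 to 0.36), each range without single libraries. Except where fewer libraries or summed genes made the difference, the cause was not tested. The other scaling moved the median of all genes by 0.002. No paired analysis was possible because the replicate numbers were given in the order of the samples and pair nothing. Genes under about 1 CPM, such as Aldh1b1 and Akr1b7, and the 2 KPS-HET libraries limit what could be detected.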

Other observations

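The genes beside Adh1 had counts where Adh1 was highest: Adh6a (0.378 CPM) and Adh6-ps1 (0.189 CPM) were found in KP replicate 1 and in no other library. Adh4 was found in KPS-HET replicate 1 alone, at 0.0428 CPM.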
